A study of Mus musculus with 18 samples.

Results

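The enzymes of cholesterol synthesis and 1 protein of their feedback control were followed in mouse liver RNA-seq through 7 genes: Hmgcs1, Idi1, Fdps, Sqle, Lss, Cyp51 and Insig1. They were chosen by name, with earlier results of these data known, and each matched 1 of the 32285 gene rows of the count table. All 7 were among the 13356 genes that passed the filter on low counts and were tested. None of the 7 codes for an uptake receptor, so genes of uptake are given from a separate list of pathway genes.

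The 18 liver libraries came from mice of strain B6D2F1 with a wild-type genotype in the labels, 6 in each of 3 groups. Space pups and Ground pups were first-generation offspring sampled at 10 weeks, descended from GS cells, a culture of spermatogonial stem cells of a DBA/2 background that carried an EGFP transgene. These cells had been stored frozen over 6 months, aboard the ISS for the Space pups and on Earth for the Ground pups, then transplanted into testes of W mice that lacked their own spermatogenesis, whose offspring were born from C57BL/6 females. BDF1 mice of unstated age were the wild-type controls, with no frozen, cultured or transplanted germ cells in their descent, so age and descent cannot be told apart in any comparison of pups with BDF1. Per the series description each library is a biological replicate, and 3 libraries make up each group and set of replicate numbers.

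Cholesterol is built in the endoplasmic reticulum and cytosol of hepatocytes from acetyl-CoA through mevalonate, isoprenoid diphosphates, squalene and lanosterol. When sterols are low, the protein SCAP carries the transcription factors SREBP to the Golgi apparatus, where they are cut and released to switch on the enzymes of synthesis and the uptake of cholesterol. When sterols are high, INSIG proteins hold SCAP back. Hepatic cholesterol synthesis also follows feeding and the time of day.

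The promoters of 3 of the genes are shown with the letters of known binding sites marked. A part of these sites in the levels of the genes was not tested. RefSeq promoter sequences on GRCm38.p6 were matched for 5 of the 7 genes, Hmgcs1, Idi1, Lss, Cyp51 and Insig1. The sequences run 5′ to 3′ on the strand of the gene towards the start site and stop at the RefSeq start or, where the GENCODE gene model begins before it, at that model. Capitals mark TCACNCCAC, a form of the sterol regulatory element, and the CCAAT box or its reverse ATTGG, the site of NF-Y. Hmgcs1 is at chr13:119690101-119690350 on the plus strand, Lss at chr10:76531355-76531587 on the plus strand, and Insig1 at chr5:28071162-28071362 on the plus strand.
Hmgcs1: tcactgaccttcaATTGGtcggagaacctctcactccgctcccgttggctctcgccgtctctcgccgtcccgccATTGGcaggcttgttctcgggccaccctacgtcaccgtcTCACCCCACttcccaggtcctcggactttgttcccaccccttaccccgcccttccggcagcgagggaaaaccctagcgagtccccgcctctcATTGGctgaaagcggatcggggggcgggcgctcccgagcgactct
Lss: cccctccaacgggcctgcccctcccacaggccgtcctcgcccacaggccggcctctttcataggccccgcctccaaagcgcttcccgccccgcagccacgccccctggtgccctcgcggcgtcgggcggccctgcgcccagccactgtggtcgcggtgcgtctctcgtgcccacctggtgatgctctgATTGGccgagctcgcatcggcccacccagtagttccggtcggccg
Insig1: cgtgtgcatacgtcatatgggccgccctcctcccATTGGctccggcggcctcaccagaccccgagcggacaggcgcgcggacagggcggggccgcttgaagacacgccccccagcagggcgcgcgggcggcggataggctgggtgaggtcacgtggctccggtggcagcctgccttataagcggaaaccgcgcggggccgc

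In the 250 bases before the RefSeq start, the letters TCACNCCAC or their reverse complement GTGGNGTGA were found in Hmgcs1 alone of the 5, and in 1.05% of all 32851 promoter windows. A CCAAT box on either strand was found in all 5, against 33.9% of all windows, and Hmgcs1 held 3 of them. Idi1 held 2, at 45 and 14 bases before its start, and Cyp51 held 1 at 29 bases, in stretches that the GENCODE gene model already counts as transcribed and that are not printed. The GC box GGGCGG, on either strand, was also in all 5, against 32.7% of all windows. The E-box CACGTG was found in Insig1 alone, 101 bases before its start, against 6.02% of windows. No match of 1 motif overlapped a match of another in these 5 windows. These matches describe letters only.

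In mm10 coordinates with GENCODE M21, the 7 genes are protein-coding and lie on 5 chromosomes: Hmgcs1 (ENSMUSG00000093930) at chr13:119690379-119708260, Idi1 (ENSMUSG00000058258) at chr13:8885501-8892451, Fdps (ENSMUSG00000059743) at chr3:89093588-89101959, Sqle (ENSMUSG00000022351) at chr15:59315077-59331192, Lss (ENSMUSG00000033105) at chr10:76531588-76557138, Cyp51 (ENSMUSG00000001467) at chr5:4081145-4104746 and Insig1 (ENSMUSG00000045294) at chr5:28071363-28078662. Cyp51 and Fdps are on the minus strand and the others on the plus strand. The gene Akap9 overlaps Cyp51 on the opposite strand and held 11319 counts over the 18 libraries. The strand setting of the counting was not stated, so a contribution of Akap9 reads to Cyp51 was not tested.

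Library totals ran from 15407450 to 20562351 counts, and the 7 genes held between 59 and 19215 counts in any library. Replicates 1 to 3 of every group had 1822 to 2482 summed counts of 4 Y-linked genes and at most 187 of Xist, whereas replicates 4 to 6 had at most 26 Y-linked counts and at least 12218 of Xist, and groups were therefore compared within each set. None of 10 hepatocyte markers was at 0 in all libraries. Their summed level in replicates 4 to 6 was 226600 to 397000 CPM (counts scaled by the library size after TMM) in the pups and 89400 to 115500 CPM in BDF1, led by Alb, at 17.6% to 24.1% of counts in the pups and 6.72% to 8.03% in BDF1. The 5 erythroid markers summed to 102 to 718 CPM in these pups and to 32.3 to 88.1 CPM in BDF1. Space replicate 4 and Ground replicates 5 and 6 had Serpina6 at up to 3.43% of counts, and Space replicate 6 held 36.8 CPM of haploid germ cell markers. In bulk liver, fewer cells of a type and less RNA per cell cannot be told apart.

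Per kilobase of exon, the median level over the 18 libraries was highest for Insig1 at 74.4 CPM per kb. Fdps at 39.3, Hmgcs1 at 27.4 and Cyp51 at 19.7 CPM per kb came next. Sqle at 5.54, Lss at 4.05 and Idi1 at 4.05 CPM per kb were the lowest, and the ranges of these 3 over libraries overlapped. Sqle spanned the widest range of levels, 21.1-fold between 5.94 CPM in Ground replicate 3 and 125 CPM in Space replicate 6. Cyp51 spanned the narrowest, 4.02-fold.

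**Figure D1:**
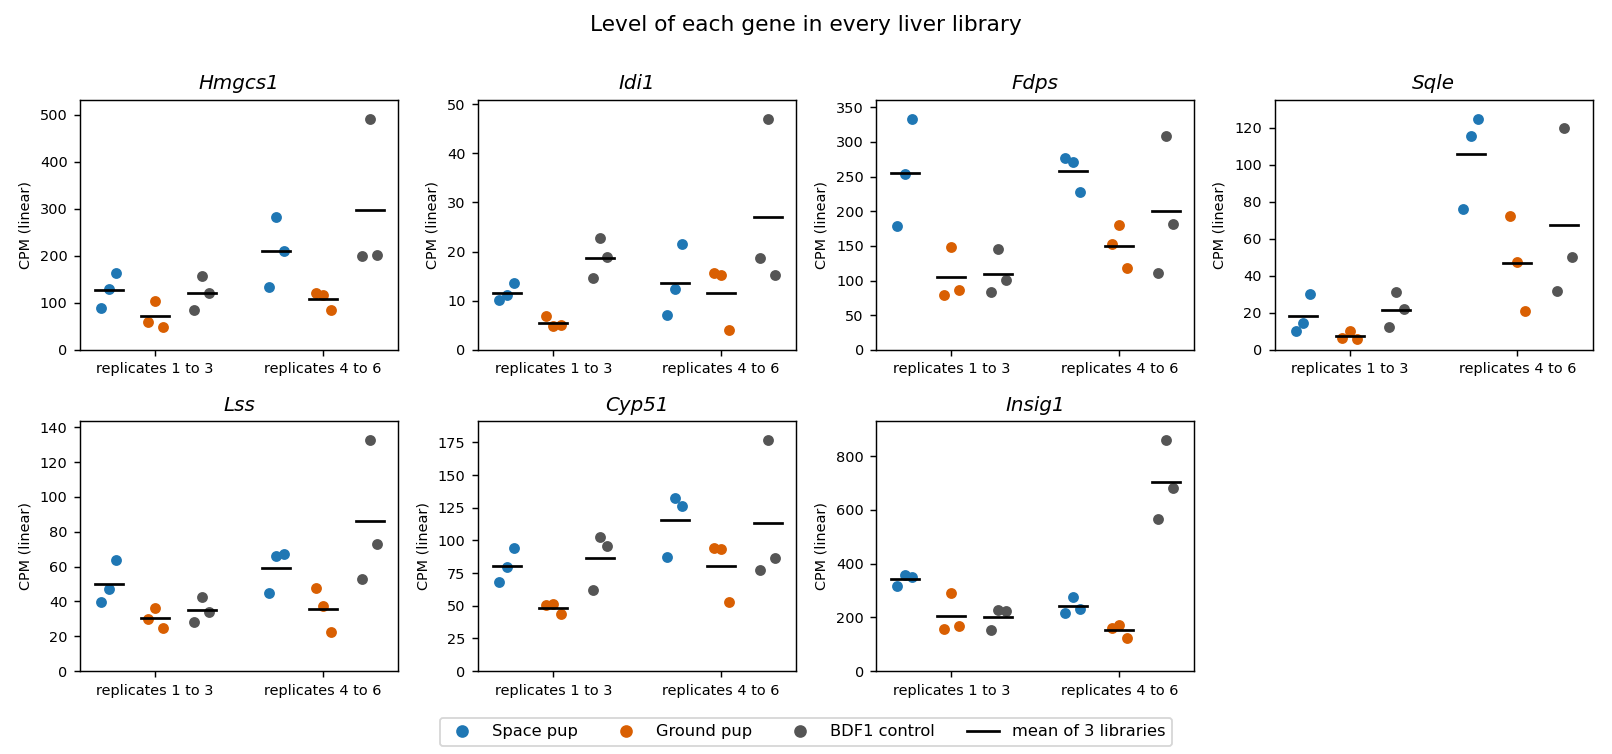
Each panel plots 1 gene's level in CPM on a linear axis that starts at 0, with 1 point per library and a bar at the mean of 3 libraries, in Space pups, Ground pups and BDF1 controls by set of replicate numbers. Ground pups have the lowest mean in both sets for Hmgcs1, Idi1, Fdps, Sqle, Lss and Cyp51, and Insig1 in BDF1 replicates 4 to 6 stands at 568 to 860 CPM.

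Hmgcs1, the cytosolic HMG-CoA synthase that makes the precursor of mevalonate, was measured at 89.0, 130 and 163 CPM in Space replicates 1 to 3. It was at 60.0, 104 and 48.7 CPM in the same Ground replicates and at 84.3, 158 and 122 CPM in BDF1. All 3 groups overlapped in this set. Its level in replicates 4 to 6 was 133, 283 and 211 CPM in Space pups, 121, 117 and 85.3 CPM in Ground pups and 199, 492 and 201 CPM in BDF1. Every Ground library lay below every Space and every BDF1 library here, and BDF1 replicate 5 was the highest of all 18.

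Idi1, the isomerase that interconverts the 5-carbon diphosphates, had 10.1, 11.1 and 13.7 CPM in Space replicates 1 to 3, 6.78, 4.85 and 5.00 CPM in Ground and 14.7, 22.8 and 18.9 CPM in BDF1. The groups were ordered Ground, Space, BDF1 in this set with no overlap. Among replicates 4 to 6, Idi1 was at 7.11, 12.3 and 21.6 CPM in Space, at 15.6, 15.2 and 4.08 CPM in Ground and at 18.8, 47.1 and 15.3 CPM in BDF1, and all 3 groups overlapped.

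Fdps makes farnesyl diphosphate, from which squalene, ubiquinone and prenyl groups derive. Its level was 179, 254 and 334 CPM in Space replicates 1 to 3, 79.4, 149 and 87.0 CPM in Ground and 83.4, 145 and 101 CPM in BDF1. The lowest Space library was above all 6 others of the set. Replicates 4 to 6 had Fdps at 276, 272 and 228 CPM in Space, at 152, 180 and 118 CPM in Ground and at 111, 308 and 181 CPM in BDF1, so that Space lay above Ground without overlap and BDF1 spread over both.

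Sqle, the squalene epoxidase and a rate-limiting step of the sterol branch, was low in replicates 1 to 3, with 10.2, 14.5 and 30.2 CPM in Space, 6.48, 10.1 and 5.94 CPM in Ground and 12.3, 31.2 and 21.8 CPM in BDF1. Ground lay below both other groups. Sqle reached in replicates 4 to 6 76.4, 116 and 125 CPM in Space, 72.5, 47.4 and 20.9 CPM in Ground and 32.0, 120 and 50.1 CPM in BDF1. Each group's lowest value in this set was above its mean in replicates 1 to 3.

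Lss closes squalene epoxide into lanosterol. It stood at 39.7, 47.1 and 63.9 CPM in Space replicates 1 to 3, at 30.0, 36.4 and 24.8 CPM in Ground and at 28.1, 42.7 and 34.1 CPM in BDF1. Space lay above Ground, and BDF1 overlapped both. Lss in replicates 4 to 6 was at 44.7, 66.3 and 67.1 CPM in Space, at 47.4, 37.2 and 22.6 CPM in Ground and at 53.0, 133 and 73.2 CPM in BDF1, where every BDF1 library was above every Ground library.

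Cyp51, the demethylase that acts on lanosterol, was at 68.3, 79.6 and 94.6 CPM in Space replicates 1 to 3, at 50.6, 51.1 and 44.0 CPM in Ground and at 61.8, 103 and 95.9 CPM in BDF1. Ground was below both other groups with no overlap. Replicates 4 to 6 gave 87.5, 133 and 126 CPM in Space, 94.6, 93.5 and 52.6 CPM in Ground and 77.1, 177 and 86.6 CPM in BDF1, all overlapping.

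Insig1, the membrane protein that retains SCAP and is itself switched on by SREBP, was at 318, 359 and 351 CPM in Space replicates 1 to 3, at 158, 290 and 167 CPM in Ground and at 152, 227 and 223 CPM in BDF1. Every Space library was above every library of the other groups. For replicates 4 to 6 it was at 218, 275 and 233 CPM in Space, at 162, 171 and 124 CPM in Ground and at 568, 860 and 680 CPM in BDF1. The order was Ground, Space, BDF1 with no overlap.

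The first question was whether Space pups differ from Ground pups, whose donor cells were stored in orbit and on Earth. The groups also had different recipient fathers, and per the paper only some recipients of each kind became fertile. Father, litter and day of sampling were not stated for the libraries, so littermates may stand among the replicates. Storage therefore cannot be told apart from father or litter in this comparison, and their part was not tested. In replicates 1 to 3, all 7 genes had a higher fitted level in Space pups, by 0.73 to 1.29 on the log2 scale, and in replicates 4 to 6 by 0.24 to 1.17. The median of the 7 was 0.84 in the first set and 0.73 in the other, beside -0.01 over all genes in each. Some marker sums also separated these groups, in 1 set or in both. Those of 4 sinusoidal endothelium genes were 46.2 to 53.5 CPM in Space and 58.0 to 96.9 CPM in Ground in replicates 1 to 3, and 52.5 to 68.4 and 88.3 to 96.6 CPM in replicates 4 to 6. Those of 4 stellate cell genes in replicates 1 to 3 were 131 to 146 CPM in Space and 115 to 120 CPM in Ground. In replicates 4 to 6 they overlapped, at 108 to 140 and 131 to 167 CPM. Sums of 5 cholangiocyte genes in replicates 4 to 6 were 22.2 to 23.6 and 12.6 to 19.2 CPM. In replicates 1 to 3 they overlapped, at 22.8 to 29.0 and 20.9 to 37.0 CPM. Kupffer cell and hepatocyte sums overlapped in both sets. The part of marker levels in the differences was not tested. None of the 7 genes passed edgeR's quasi-likelihood test after Benjamini-Hochberg adjustment in either set. The background of that test was 0.00749% of all genes called in replicates 1 to 3 and 0.0225% in replicates 4 to 6.

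The largest differences between Space and Ground replicates 1 to 3 were Sqle, with a log2 fold change of 1.29 (SE 0.54, adjusted p = 0.461), and Fdps, with 1.28 (SE 0.33, adjusted p = 0.266). Idi1 was at 1.06, Hmgcs1 at 0.84, Cyp51 at 0.74, Insig1 at 0.74 and Lss at 0.73, which as fold changes are 2.09, 1.79, 1.67, 1.67 and 1.65. All 7 genes had an unadjusted p under 0.05, where 4.77% of all genes did so with a higher level in Space. The genes were chosen with earlier results of these data known and moved together, so counts of this kind are descriptions only. Without overlap, 6 of the 7 were higher in every Space library than in every Ground library, Hmgcs1 being the exception, against 8.94% of all genes. DESeq2 called 1 of the 7, Fdps, with an adjusted p of 0.034, and 0.217% of all genes higher, and limma voom called 0.

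Between replicates 4 to 6 of the pups the largest differences were Sqle at 1.17 (SE 0.50, adjusted p = 0.319), Hmgcs1 at 0.96 (SE 0.38, adjusted p = 0.281) and Fdps at 0.78 (SE 0.33, adjusted p = 0.309). Lss was at 0.73, Insig1 at 0.67 and Cyp51 at 0.53. Idi1 was the smallest at 0.24 (SE 0.47, adjusted p = 0.858), and its sign turned without Space replicate 6, at -0.25, or without Ground replicate 6, at -0.16. Here 5 of the 7 genes had an unadjusted p under 0.05, against 7.35% of all genes higher in Space. Hmgcs1, Fdps, Sqle and Insig1, 4 of the 7, did not overlap between Space and Ground, against 7.5%. DESeq2 and limma voom each called 0.

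The difference between the sets in the effect of Space against Ground was itself tested and gave 0 calls among the 7 by edgeR, with 0 at an unadjusted p under 0.05, 0 by DESeq2 and 0 by limma voom, against a background of 0.0% of all genes. The mean of both sets' differences, an analysis added after the values of each set had been seen, used all 12 pups. It gave Insig1 0.71 (SE 0.16, adjusted p = 0.0882), Fdps 1.03 (SE 0.23, adjusted p = 0.0901), Hmgcs1 0.90 (SE 0.27, adjusted p = 0.144) and Sqle 1.23 (SE 0.37, adjusted p = 0.144). With both sets averaged edgeR again called 0 of the 7, at a background of 0.0225%, while 6 of 7 had an unadjusted p under 0.05, against 8.76% of genes higher in Space. DESeq2 called 3 of the 7 and 1.36% of all genes higher, and limma voom 0. Without Ground replicate 2 edgeR called 3 of the 7 and 2.58% of all genes higher. The averaged difference of each of the 7 stayed above 0 in all 27 alternatives.

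**Figure D2:**
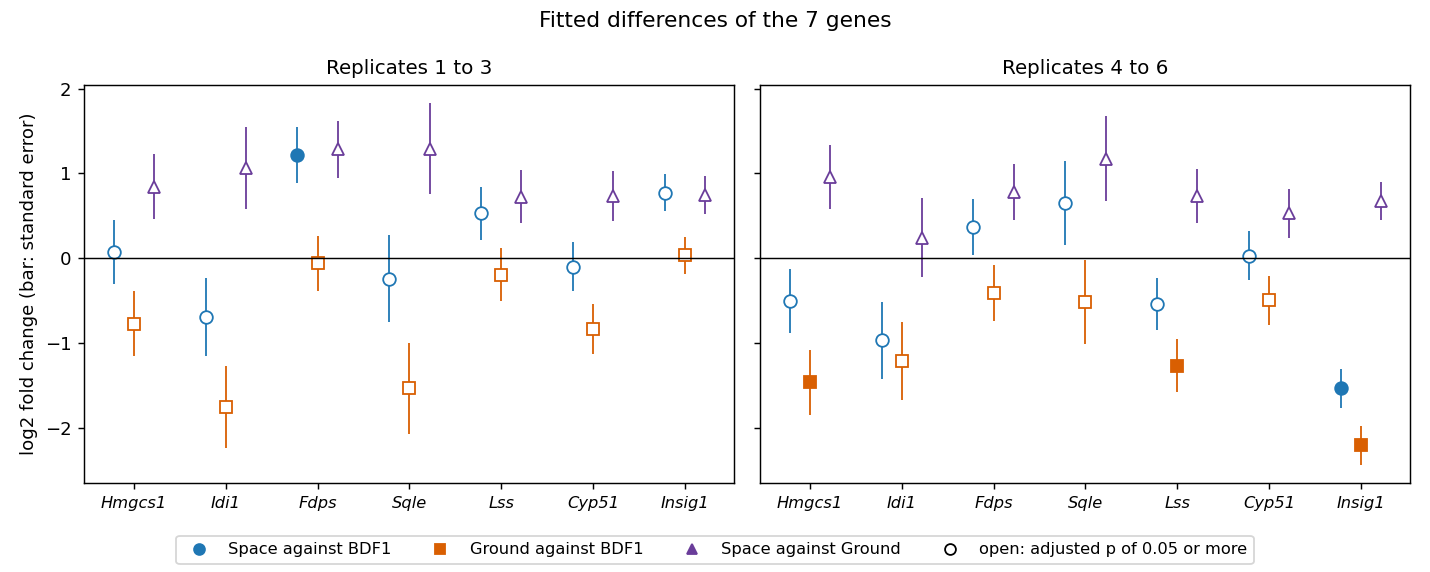
The fitted log2 fold change of each gene is plotted with its standard error for 3 comparisons in each set of replicate numbers, filled where the adjusted p was under 0.05. Space against Ground lies above 0 for every gene in both sets with no filled point, and the filled points are Fdps in Space replicates 1 to 3, Insig1 in Space replicates 4 to 6, and Hmgcs1, Lss and Insig1 in Ground replicates 4 to 6.

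Space and Ground pups were each also compared with the same BDF1 libraries, so these comparisons share their controls and are given side by side. In replicates 1 to 3, Fdps rose in Space pups, 2.33-fold above BDF1 (log2 fold change 1.22, SE 0.33, adjusted p = 0.0462). In the same libraries, hepatocyte markers summed to 104000 to 106400 CPM in Space and 68920 to 83290 CPM in BDF1, stellate markers to 131 to 146 and 84.9 to 101 CPM, and endothelium markers to 46.2 to 53.5 and 66.2 to 75.5 CPM, and their part was not tested. Fdps was 1 of 7 genes called, where 2.85% of all genes were called higher and 1.8% lower. Fdps in Ground pups of the same set differed from BDF1 by -0.06 (SE 0.33, adjusted p = 0.955). With total counts in place of TMM, 169 of 425 called genes were higher, against 380 higher and 240 lower. This call for Fdps did not survive 11 of 18 fits that each left out 1 library, with each of the 6 libraries compared among them, nor the use of total counts, over a range of adjusted p from 0.00513 to 0.187.

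Insig1 in Space replicates 1 to 3 was 0.77 above BDF1 (SE 0.22, adjusted p = 0.0604) and in Ground pups 0.03 above it (SE 0.22, adjusted p = 0.966). Ground pups of this set had 0 of the 7 genes called by edgeR, against 1.14% of all genes called higher and 0.786% lower. At an unadjusted p under 0.05, 3 of the 7 were lower in Ground pups, against 7.27% of all genes. DESeq2 called 1 of the 7, Idi1, and 1.74% of all genes lower, and limma voom called 0. Without Space replicate 4, Ground replicate 6 or BDF1 replicate 5, edgeR called 1. The 3 genes were Idi1 at -1.76 (SE 0.48, adjusted p = 0.0715), Sqle at -1.54 (SE 0.54, adjusted p = 0.159) and Cyp51 at -0.84 (SE 0.29, adjusted p = 0.159). For Space pups the same genes were at -0.69 for Idi1, -0.25 for Sqle and -0.10 for Cyp51, with adjusted p from 0.442 to 0.89. Lss was at 0.53 in Space and -0.20 in Ground, and Hmgcs1 at 0.07 and -0.77. With total counts Hmgcs1 in Space turned to -0.0515. The median of the 7 was 0.07 in Space, with a range from -0.14 to 0.31 as 1 library each was left out, and -0.77 in Ground, beside 0.00 and 0.01 over all genes.

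Replicates 4 to 6 held the largest change of the 7 genes. Insig1 fell in Space pups to 2.91-fold below BDF1 (log2 fold change -1.54, SE 0.23, adjusted p = 0.000916). In Ground pups it fell to 4.62-fold below BDF1 (log2 fold change -2.21, SE 0.23, adjusted p = 5.21e-05). Both calls held in all 28 alternatives, with log2 fold changes of -1.94 to -1.37 in Space and -2.67 to -2.03 in Ground.

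Insig1 was the only one of the 7 genes called in Space replicates 4 to 6, where 6.43% of all genes were called higher and 5.49% lower. The median of the 7 was -0.51, beside 0.01 over all genes, and turned to 0.06 without BDF1 replicate 5. The other 6 genes lay between -0.97 for Idi1 (SE 0.46, adjusted p = 0.166) and 0.65 for Sqle (SE 0.50, adjusted p = 0.405). Fdps was at 0.37 and Cyp51 at 0.02, and with total counts in place of TMM both turned, to -0.05 and -0.37. Total counts shifted all genes in this comparison by a median of -0.40 on the log2 scale, and 337 of 4980 called genes were then higher, against 859 higher and 733 lower with TMM.

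Ground replicates 4 to 6 had 3 of the 7 genes lower than BDF1, where 7.35% of all genes were called lower and 7.86% higher. Besides Insig1, Hmgcs1 fell to 2.76-fold below BDF1 (log2 fold change -1.46, SE 0.38, adjusted p = 0.0175) and Lss to 2.41-fold below it (log2 fold change -1.27, SE 0.31, adjusted p = 0.0129). In these libraries 5 cholangiocyte markers summed to 12.6 to 19.2 CPM in Ground and 22 to 25 CPM in BDF1, and 4 steroidogenic markers, 1 of them at 0 in all libraries, to 7.25 to 9.54 and 1.53 to 3.22 CPM, and their part was not tested. Both calls, for Hmgcs1 and Lss, were lost without BDF1 replicate 5, where Hmgcs1 was at -0.88 and Lss at -0.80, and without Ground replicate 6, where they were at -1.32 and -1.03. Without the 3 libraries high in Serpina6, which leaves 1 Ground library assumed to vary like the other groups, Hmgcs1 was at -1.29 and Lss at -0.86. Idi1 was at -1.21 (SE 0.46, adjusted p = 0.0849), Sqle at -0.52, Cyp51 at -0.50 and Fdps at -0.42, with adjusted p from 0.264 to 0.519 for the last 3. The median of the 7 was -1.21 with all libraries and came to -0.53 without BDF1 replicate 5 and to -0.81 without Ground replicate 6. With total counts, which moved all genes by a median of -0.47 and left 402 of 6136 called genes higher against 1050 higher and 981 lower with TMM, 6 of the 7 were called lower.

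The effect against BDF1 differed between the sets for Insig1 alone of the 7. The difference, replicates 4 to 6 minus 1 to 3, was -2.31 for Space pups (SE 0.32, adjusted p = 0.00119) and -2.24 for Ground pups (SE 0.32, adjusted p = 0.00289). Among all genes, 3.19% were called in this test for Space pups and 2.74% for Ground pups. Insig1 in BDF1 itself was at 201 ± 42.2 CPM in replicates 1 to 3 and at 703 ± 148 CPM in replicates 4 to 6 (SD, n = 3 each). In Space pups it was at 343 ± 22.1 and 242 ± 29.3 CPM, and in Ground pups at 205 ± 73.4 and 152 ± 24.6 CPM.

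Averaged over both sets, an analysis added after seeing each set, 5 of the 7 genes were lower in Ground pups than in BDF1, where 7.35% of all genes were called lower. They were Idi1 at -1.48 (SE 0.33, adjusted p = 0.00829), Hmgcs1 at -1.12 (SE 0.27, adjusted p = 0.0121), Insig1 at -1.09 (SE 0.16, adjusted p = 0.000632), Lss at -0.74 (SE 0.22, adjusted p = 0.0359) and Cyp51 at -0.67 (SE 0.21, adjusted p = 0.0395). The Insig1 average joins sets whose differences were not alike. Without BDF1 replicate 5, or without any 1 of Ground replicates 1, 3 and 6 or BDF1 replicates 2 and 3, 3 of the 7 were called. Space pups averaged the same way had 1 of the 7 called, Fdps, which was higher at 0.79 (SE 0.23, adjusted p = 0.0349), against 7.0% of all genes called higher, and this call was lost without any 1 of Space replicates 2 to 5 or BDF1 replicates 1, 3, 4 and 6.

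The other steps of the pathway were read from 15 further enzymes. In Ground replicates 4 to 6, 6 of the 15 were lower than BDF1 and 0 higher, where 7.35% of all genes were called lower, with a median log2 fold change of -0.72 against 0.01 over all genes tested and of -0.40 without BDF1 replicate 5. Msmo1, which removes methyl groups from lanosterol derivatives, fell there to -1.97 (SE 0.33, adjusted p = 0.00117). In Space replicates 4 to 6, 2 of the 15 were lower and 0 higher, among them Hsd17b7 at -0.62 (SE 0.19, adjusted p = 0.0447), an enzyme of sterol demethylation, where 5.49% of all genes were called lower. Without BDF1 replicate 5 the counts were 5 lower in Ground and 0 in Space, and with total counts they were 12 and 7.

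Of the 15 enzymes, replicates 1 to 3 had 1 called higher in Space pups against BDF1, beside 2.85% of all genes. The count was 0 with total counts, 0 with the replicate block and 2 without BDF1 replicate 5. In Ground pups 1 was called lower, Hsd17b7, at -0.89 (SE 0.19, adjusted p = 0.0266), beside 0.786% of all genes. The call for Hsd17b7 was lost in 5 of 18 fits that each left out 1 library. Between Space and Ground pups 0 of the 15 were called in either set by edgeR. At an unadjusted p under 0.05, 8 of 15 were higher in Space in replicates 1 to 3 and 7 of 15 in replicates 4 to 6, against 4.77% and 7.35% of all genes. The median log2 fold changes of the 15 were 0.65 and 0.51, where those of all genes were -0.01 in each set.

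Uptake was read from 12 genes of receptors and intracellular cholesterol transport, of which 11 passed the filter. Of these, 3 were lower than BDF1 in Space replicates 1 to 3 and 0 higher, and with total counts 1 was lower. In replicates 1 to 3, Lrp1, a receptor of remnant lipoproteins, was lower in Space pups than in BDF1 at -0.58 (SE 0.16, adjusted p = 0.0412), as was Scarb1, the HDL receptor, at -0.52 (SE 0.13, adjusted p = 0.0342). Each of these calls was lost without any 1 of the 6 libraries compared, and 1.8% of all genes were called lower there. Ground pups had 0 of 11 called in that set by edgeR, with 4 at an unadjusted p under 0.05, against 15.9% of all genes in either direction. In replicates 4 to 6, 3 of the 11 were lower than BDF1 in Space and 3 in Ground, with 0 higher. Of all genes, 5.49% and 7.35% were called lower there. With total counts 7 were lower in Space and 5 in Ground.

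**Figure D3:**
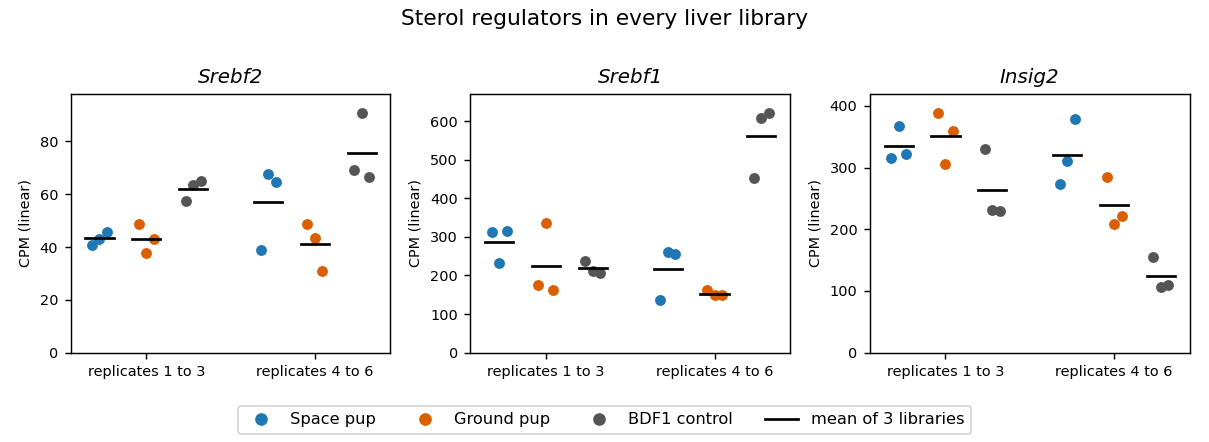
Levels in CPM on linear axes from 0 are plotted for Srebf2, Srebf1 and Insig2, with 1 point per library and a bar at the mean of 3. In replicates 4 to 6, BDF1 libraries stand above all pups for Srebf1 and below all pups for Insig2.

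Among 11 genes of sterol sensing and SREBP processing, Srebf2, which codes for the SREBP that drives cholesterol synthesis, was at 38.7, 67.5 and 64.7 CPM in Space replicates 4 to 6, at 48.8, 43.6 and 30.8 CPM in Ground and at 69.1, 90.8 and 66.6 CPM in BDF1. It fell in Ground pups, to a log2 fold change of -0.88 (SE 0.20, adjusted p = 0.00724), and in Space pups was at -0.40 (SE 0.19, adjusted p = 0.176). Srebf1, whose SREBP product drives fatty acid synthesis above all, fell by 1.37 in Space (SE 0.26, adjusted p = 0.0042) and by 1.87 in Ground (SE 0.27, adjusted p = 0.000453). Insig2, a relative of Insig1 that is not itself an SREBP target, rose by 1.38 in Space (SE 0.19, adjusted p = 0.000559) and by 0.95 in Ground (SE 0.19, adjusted p = 0.00339), so it moved opposite to Insig1. The Srebf2 call was lost with 1 set alone (adjusted p = 0.0586), and without BDF1 replicate 5 the value was -0.71 (adjusted p = 0.0491). The rise of Insig2 in Ground lost the call with total counts, at 0.50 (adjusted p = 0.0922).

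In replicates 1 to 3, Srebf2, Srebf1 and Insig2 did not pass the test against BDF1 in either kind of pup, at -0.52, 0.39 and 0.34 in Space and -0.52, 0.04 and 0.41 in Ground, with adjusted p from 0.145 to 0.964. The whole sensing list had 0 of 11 called there in Space and in Ground by edgeR, with 1 and 4 at an unadjusted p under 0.05, against 19.3% and 15.9% of all genes in either direction. For replicates 4 to 6 the list had 2 higher and 2 lower in Space, and 2 higher and 3 lower in Ground, where 6.43% of all genes were called higher and 5.49% lower in Space, and 7.86% and 7.35% in Ground. With total counts these became 1 higher and 6 lower in Space, and 0 higher and 3 lower in Ground. Between Space and Ground pups, none of Srebf2, Srebf1 and Insig2 was called in either set, the lowest adjusted p being 0.298 for Srebf2 at 0.47 (SE 0.20) in replicates 4 to 6.

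Efflux and the isoprenoid branch were read from 10 and 7 genes. Of 10 genes of cholesterol efflux, esterification and the LXR response, 1 was lower in Ground replicates 1 to 3, Abcg8, a transporter of sterols into bile, at -0.82 (SE 0.18, adjusted p = 0.0266), a call lost in 5 of 18 fits that each left out 1 library, where 0.786% of all genes were called lower. In Ground replicates 4 to 6, 2 of the 10 were higher, beside 7.86% of all genes, but 0 were without BDF1 replicate 5, with the replicate block or without the 3 libraries high in Serpina6, and 1 was without Ground replicate 6. With total counts 0 were higher there and 3 lower, and in Space replicates 4 to 6 there were 0 higher and 2 lower. Space pups had 0 called in both sets by edgeR, with 2 and 1 at an unadjusted p under 0.05, against 19.3% and 29.4% of all genes in either direction. Of 7 genes of the isoprenoid branch, which serves ubiquinone, dolichol and prenyl groups, edgeR called 0 against BDF1 in either set. At an unadjusted p under 0.05 there were 0, where 30.2% of all genes passed in Ground replicates 4 to 6. With total counts 3 of these 7 were called lower in Space replicates 4 to 6 and 4 of 7 in Ground.

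Fatty acid synthesis, the other branch under SREBP control, was read from 11 genes. In Space replicates 1 to 3, 7 of 11 genes were higher than BDF1 and 0 lower, where 2.85% of all genes were called higher and 1.8% lower, the largest being Scd1, the stearoyl-CoA desaturase, at 4.47 (SE 0.93, adjusted p = 0.0124) and Thrsp, a lipogenic nuclear protein, at 4.39 (SE 0.57, adjusted p = 0.000458). The Scd1 call was lost without any 1 of the 3 BDF1 libraries. In Ground replicates 1 to 3, Thrsp was the 1 of 11 called, at 2.77 (SE 0.53, adjusted p = 0.0163), a call lost without BDF1 replicate 2 or 3, where 1.14% of all genes were called higher. In replicates 4 to 6, with 6.43% of all genes called higher in Space and 7.86% in Ground, Pnpla3, a lipid droplet protein, was the 1 of 11 called in each kind of pup, at 4.08 in Space (SE 1.00, adjusted p = 0.0164) and at 3.36 in Ground (SE 0.99, adjusted p = 0.0314). Without Space replicate 4 or BDF1 replicate 4 the Pnpla3 call in Space was lost, as was that in Ground without Ground replicate 5 or any 1 of the 3 BDF1 libraries. Pnpla3 in BDF1 replicates 4 to 6 was low, at 0.30 to 2.0 CPM. Between Space and Ground pups edgeR called 0 of the 11 in either set, with medians of 0.97 in replicates 1 to 3 and 0.37 in replicates 4 to 6. As 1 library each was left out, the medians ran from 0.66 to 1.90 and from 0.14 to 0.83. At an unadjusted p under 0.05, 5 of 11 were higher in Space in the first of these sets and 1 of 11 in the other, against 4.77% and 7.35% of all genes.

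Clock genes moved beside these results. Of 16 clock genes tested, 7 were higher in Space replicates 1 to 3 than in BDF1 and 3 in Ground, beside 2.85% and 1.14% of all genes. In Ground, Per2 was at 2.2 (SE 0.27, adjusted p = 0.00114) and Per3 at 1.96 (SE 0.39, adjusted p = 0.019). Ciart was the largest in Space at 3.52 (SE 0.92, adjusted p = 0.0382), a call lost without any 1 of the 6 libraries compared. Ciart levels were low, at 0.0522 to 0.329 CPM in BDF1 and 1.59 to 2.85 CPM in Space. The Per3 call was lost without Ground replicates 1 or 3 or BDF1 replicates 2 or 3. In replicates 4 to 6, 2 were higher and 1 lower in Space, with Npas2 at 1.62 (SE 0.34, adjusted p = 0.00684), and 2 were higher and 2 lower in Ground, with Clock at 0.68 (SE 0.19, adjusted p = 0.0253), a call lost without Ground replicates 4 or 5 or BDF1 replicates 5 or 6. The shares of all genes called in that set were 6.43% higher and 5.49% lower in Space and 7.86% and 7.35% in Ground. Without BDF1 replicate 5 the clock counts came to 1 higher and 0 lower in Space, and 0 and 0 in Ground. With total counts in place of TMM, replicates 4 to 6 had 1 clock gene higher and 5 lower in Space, and 0 higher and 6 lower in Ground. Between Space and Ground pups 0 of 16 were called in either set by edgeR. At an unadjusted p under 0.05 there were 6 of 16 in replicates 1 to 3 and 1 of 16 in replicates 4 to 6, where 9.67% and 13.9% of all genes passed in either direction. The hour of sampling was not stated, and its part in the results was not tested, nor was that of the hepatocyte marker levels given above.

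Across the 18 libraries the 7 genes moved together. Pearson's r between pairs of members over log2 CPM ran from 0.33 to 0.92, with a median of 0.73 over 21 pairs. After the mean of each group and set was taken out, it ran from 0.44 to 0.97, with a median of 0.82. These are descriptions over libraries that share groups, sets and scaling. Hmgcs1 followed the mean of the other 6 most closely, at r = 0.96, and Insig1 least, at r = 0.64.

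The 10 genes most like the mean standardized level of the 7, out of 9097 with a mean of at least 5 CPM, were led by Hsd17b7 at r = 0.92, Msmo1 at 0.91, Dhcr7 at 0.91, Fdft1 at 0.91, Pmvk at 0.90 and Sc5d at 0.89, which are all enzymes of the same pathway. The others were Cfap36 at 0.87, Erg28 at 0.87, Mmab at 0.86 and Lacc1 at 0.84. Erg28 codes for a scaffold of sterol demethylation enzymes, and Mmab is an enzyme of cobalamin metabolism.

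**Figure D4:**
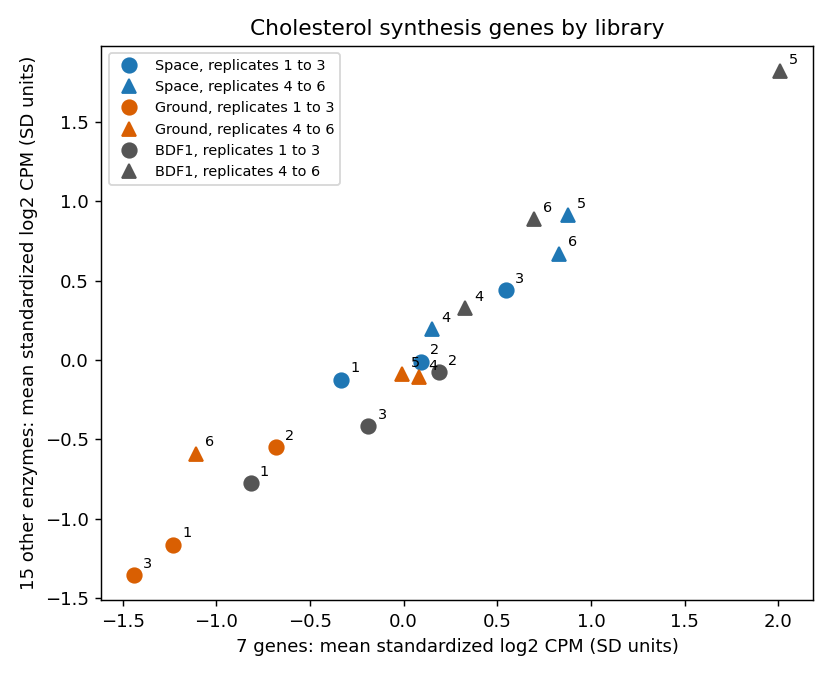
Each point is 1 library, numbered by replicate, with the mean standardized log2 CPM of the 7 genes on the horizontal axis and that of the 15 other enzymes on the vertical axis, both in SD units. BDF1 replicate 5 is at 2.01 and 1.82 at the upper end, and Ground replicates 1 and 3 are at the lower end.

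Single libraries stood out in this joint level. BDF1 replicate 5 had the highest value of its set of 9 for 6 of the 7 genes, Sqle being the exception, and Ground replicate 6 the lowest of its set for 6 of the 7. In replicates 1 to 3, Ground replicate 3 was the lowest for 4 of the 7, and Space replicate 3 and BDF1 replicate 2 were each the highest for 3. The mean standardized level of the 7 was above that of all other libraries in BDF1 replicate 5, at 2.01, followed by Space replicates 5 and 6 at 0.88 and 0.83. It was lowest in Ground replicates 3, 1 and 6, at -1.44, -1.23 and -1.11.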

How the data were processed

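RNA-seq counts of 18 livers were used as deposited. Per the labels, the authors demultiplexed reads with bcl2fastq 2.20, trimmed with cutadapt 4.6, aligned with HISAT2 2.2.1 to mm10 and counted reads per gene with HTSeq 2.0.2, so the deposited values are raw whole-number counts. The members and pathway lists were chosen with earlier results of these data known. Groups came from the labels. The number of BDF1 libraries and their standing as biological replicates follow the labels and the series description. The text of the study gives fewer wild-type mice, and whether each BDF1 library is a separate animal could not be checked further.

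Counts were analysed with edgeR 4.0.16 in R 4.3.3: filterByExpr, TMM factors, a quasi-likelihood fit over 6 cells (group by replicates 1 to 3 or 4 to 6, 3 libraries each), contrasts within a set, their difference between sets and, added after the values were seen, their mean. P-values were two-sided and adjusted (Benjamini-Hochberg) over all 13356 genes tested, and 0.05 was the threshold. The test was run on simulated data first. CPM were counts scaled by the TMM-adjusted library size, with a prior count of 2 added for log2 CPM. Library totals of 15407450 to 20562351 limit precision by counting error little at these levels.

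Named genes were the 7 members, then a set of regulators of which Srebf2, Insig2 and Srebf1 are given and the rest are not reported here, and in each comparison up to 3 rises and 3 falls that were largest among called list genes. Alternatives were limma voom (limma 3.58.1), DESeq2 1.42.0, other scalings and filters, 1 set alone, a replicate block, and leaving out libraries. No pooled columns were used.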

Additional observations from a re-analysis of the deposited data

Results flagged for a closer look

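Single libraries stood apart from the other 5 of their group in 7 of 30 groups of 6 levels examined, where chance gives about 5 in 100, or 1.5 of 30. The measure was the gap to the nearest library divided by the range of the group. In 5 cases the library was BDF1 replicate 5, at the high end: Idi1 at 0.75, Hmgcs1 at 0.714, Srebf2 at 0.652, Sqle at 0.648 and Cyp51 at 0.644. In the other cases it was Ground replicate 2, at the high end for Srebf1 at 0.859 and for Insig1 at 0.719. These groups of 6 span both sets of replicate numbers.

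The effect against BDF1 differed between replicates 4 to 6 and 1 to 3 by a test of the difference itself (edgeR, adjusted over all genes). For Insig1 the difference was -2.31 in Space pups and -2.24 in Ground pups, on the log2 scale, and both held in all 27 alternatives. Srebf1 differed by -1.76 in Space and -1.91 in Ground. Insig2 differed by 1.03 in Space, which was lost in 13 of 27 alternatives. Both kinds of pup were set against the same BDF1 libraries.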

How the results depend on the processing

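All 7 members kept a positive difference of Space against Ground, averaged over sets, in the 27 alternatives, and Insig1 kept both calls in replicates 4 to 6. For Space against BDF1 in replicates 1 to 3, the members called were 1, and 2 with DESeq2, with no filter, with 1 set alone, with a replicate block and without Space 4, Ground 5 and Ground 6, but 0 with total counts. For Ground they were 0, with 1 by DESeq2, with no filter and without those 3 libraries, and 2 with 1 set alone. Space against Ground in replicates 1 to 3 had 0, and 1 by DESeq2. In replicates 4 to 6, Space against BDF1 had 1, and 2 with total counts, while Ground had 3, then 6 with total counts, 1 with 1 set alone and 1 without the 3 libraries. Averaged, Space against BDF1 had 1, then 2 with total counts and 0 without the 3 libraries, Ground 5, then 2 without them, and Space against Ground 0, then 3 by DESeq2 and 2 with no filter. The cause was not tested.

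Signs turned with total counts for Hmgcs1 (-0.0515, Space, replicates 1 to 3), Insig1 (-0.0423, Ground, replicates 1 to 3), Cyp51 (-0.37) and Fdps (-0.0484, both Space, replicates 4 to 6), with limma voom for Insig1 (-0.0023, Ground, replicates 1 to 3), and without the 3 libraries for Sqle (0.11, Ground, replicates 4 to 6). Leaving out 1 library each time, members called ranged from 0 to 2 (Space) and 0 to 1 (Ground) against BDF1 and 0 to 1 between pups in replicates 1 to 3, from 1 to 3 for Ground in replicates 4 to 6, and, averaged, from 0 to 2 (Space), 3 to 6 (Ground) and 0 to 3 (between pups). In Space against BDF1, replicates 1 to 3, values ranged from -0.14 to 0.31 for Hmgcs1, -0.82 to 0.11 for Sqle and -0.30 to 0.0354 for Cyp51, and in replicates 4 to 6 from -0.79 to 0.0602 for Hmgcs1 and -0.19 to 0.49 for Cyp51. In Ground, replicates 1 to 3, they ranged from -0.40 to 0.19 for Fdps and -0.30 to 0.19 for Insig1, and in replicates 4 to 6 from -0.71 to 0.0521 for Fdps and -0.98 to 0.21 for Sqle. Idi1 between pups in replicates 4 to 6 ranged from -0.25 to 0.54.

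Over all genes, DESeq2 called 990, 616 and 47 in replicates 1 to 3 (Space and Ground against BDF1, Space against Ground), where edgeR called 620, 257 and 1, and 129 against 3 for Space against Ground in replicates 4 to 6. With total counts, 350 of 4512 and 347 of 4638 averaged calls were higher for Space and Ground, against 935 of 1724 and 969 of 1950. No pairing by replicate number was seen: same-numbered libraries correlated at -0.60 to 0.25 and other-numbered ones at -0.33 to 0.50. So few libraries cannot exclude pairing. With the replicate block 354, 92, 939 and 1383 genes were called against BDF1 (Space, then Ground, replicates 1 to 3, then 4 to 6), and 2 members in Space replicates 1 to 3. With 3 libraries per group and set, precision rests on the spread between animals.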
